A study of Rattus norvegicus with 8 samples.

Results

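Whole-blood transcripts of 10 antioxidant enzymes were followed in the AngII and DOCA–HS models of hypertension in rats, before and after administration of Chios mastic gum (CMG), the resin of Pistacia lentiscus var. Chia. The 10 genes, chosen by name, are the peroxiredoxins Prdx1, Prdx2, Prdx3, Prdx5 and Prdx6, the superoxide dismutases Sod1 and Sod2, catalase (Cat) and the glutathione peroxidases Gpx1 and Gpx4. All 10 were found among the 17446 genes of the count table, and all 10 passed edgeR's filter on low counts in each comparison. Male Wistar rats of 12 to 14 weeks of age received either AngII at 0.4 mg/kg/day from osmotic minipumps or weekly DOCA at 100 mg/kg with 0.9% NaCl and 1% KCl in the drinking water. CMG at 220 mg/kg was given by daily gavage for 4 weeks, from week 1 to week 5 of AngII and from week 3 to week 7 of DOCA–HS, and blood came from the first and the last of these weeks. Each of the 4 groups holds 2 libraries. The sources do not say whether these are separate rats, pools or repeated samples of a rat, so a p-value here measures the spread between libraries, which may be technical. All groups came from rats with induced hypertension, and no library of rats without CMG at week 5 or week 7 was analysed here, so CMG and the 4 further weeks of the model cannot be told apart. The minipumps are rated for 4 weeks, so that AngII delivery at week 5 is not known.

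Superoxide is turned into hydrogen peroxide by superoxide dismutases, SOD1 in the cytosol with copper and zinc and SOD2 in the mitochondrial matrix with manganese. Hydrogen peroxide is then removed by catalase, by peroxiredoxins, which most often take electrons from thioredoxin, and by glutathione peroxidases, which use glutathione and, in GPX1 and GPX4, a selenocysteine. Red blood cells carry these enzymes in large amounts because oxygen bound to hemoglobin is a steady source of superoxide, and peroxiredoxin 2, catalase and GPX1 are the peroxide-removing enzymes best known there. Many genes of this defence carry antioxidant response elements, at which the transcription factor Nrf2 acts.

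Total counts per library lay between 4149104 and 13205565, of which 61.9% to 84.3% fell on the 2 hemoglobin rows of the table (Hbb and LOC100134871, the latter taken here as hemoglobin). Outside these rows 651764 to 4490083 counts were left. The lowest total was that of DOCA–HS after replicate 2, where 2686 genes had at least 10 counts against 6097 to 8280 in the other libraries. Levels are CPM, counts scaled to the same library size for each sample, with TMM factors, which estimate the library size from the bulk of genes and were 0.343 in that library and 0.776 to 1.88 in the others. Because this factor decides many of the values below, the values that depend on it most are also given as CPM of total counts or as ratios of counts within a library, which need no factor. Most of the total counts lie on the 2 hemoglobin rows, so that CPM of total counts depends on these rows. The 10 genes held 3.97% of the non-hemoglobin counts of DOCA–HS after replicate 2 and 1.86% to 2.70% of those of the other libraries.

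Promoters were read from RefSeq (assembly GRCr8, while the reads had been aligned to rn6), which listed 9 of the 10 genes, Prdx6 not being among them. A core of the antioxidant response element, TGACNNNGC on either strand, was searched from 250 bases before to 50 bases after each start. It lay in the windows of Prdx1, Prdx5 and Sod2, which is 3 of 9 genes, and in 12.1% of all 33469 promoters of the same length. The promoters of Prdx1 and Sod2 are shown because both genes carry a match and had the lowest unadjusted p of the 10 in the AngII and the DOCA–HS model, with the match in capitals.
Prdx1 (chr5:135383656-135383905, plus strand): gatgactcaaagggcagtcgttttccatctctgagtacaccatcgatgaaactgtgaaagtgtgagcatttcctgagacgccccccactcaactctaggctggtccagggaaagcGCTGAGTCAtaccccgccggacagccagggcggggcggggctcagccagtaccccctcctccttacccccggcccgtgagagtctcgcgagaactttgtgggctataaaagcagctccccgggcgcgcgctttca
Sod2 (chr1:50050169-50050418, minus strand): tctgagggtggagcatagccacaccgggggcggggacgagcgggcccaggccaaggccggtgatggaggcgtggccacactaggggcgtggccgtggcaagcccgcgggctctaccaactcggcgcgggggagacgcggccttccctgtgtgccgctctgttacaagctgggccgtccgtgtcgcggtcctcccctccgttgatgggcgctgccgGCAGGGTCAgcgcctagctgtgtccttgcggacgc
Both run 5′ to 3′ and end at the base before the start of transcription, and in both the match is on the strand opposite to the gene, beginning 135 bases before the start in Prdx1 and 35 bases before it in Sod2. A TATAAA on either strand was found in Prdx1 and Sod1 only, against 14.2% of all promoters, and CCAAT on either strand in Cat, Gpx4 and Sod1 against 37.5%. A match describes letters and not binding, which was not measured here.

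Among the counts of the 10 genes, a small number of transcripts held nearly all reads. Prdx2, the red cell peroxiredoxin, took 57.4% of them over all libraries and between 52.5% and 70.3% in a single library. Gpx1, the cytosolic glutathione peroxidase, followed with 29.7%, catalase with 8.23% and Gpx4, which reduces lipid hydroperoxides in membranes, with 2.87%. Together these 4 genes made up 96.5% to 98.9% of the member counts of every library. Sod2 contributed 1.01%, and the remaining 5 genes, Prdx1, Prdx3, Prdx5, Prdx6 and Sod1, each contributed 0.119% to 0.221%. These are shares of reads and not levels per length, since no transcript lengths were used.

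With TMM scaling, the abundant enzymes varied widely between libraries, while Prdx2 as CPM of total counts lay only between 3637 and 5023. Prdx2 was at 4796 and 5003 CPM before and 5467 and 2708 CPM after CMG in the AngII model, and at 2087 and 3197 CPM before and 3397 and 10612 CPM after CMG in the DOCA–HS model. The AngII groups overlapped, while both DOCA–HS after libraries lay above both before libraries, the upper of them by far the highest of all 8. Gpx1 was at 3059 and 2706 CPM before and 2885 and 1524 CPM after CMG in the AngII model, and at 1097 and 1691 CPM before and 875 and 6021 CPM after CMG in the DOCA–HS model. Its DOCA–HS after libraries were the lowest and the highest of the 8, so the groups overlapped. Gpx4 was at 238 and 350 CPM before and 188 and 147 CPM after CMG in the AngII model and at 122 and 168 CPM before and 108 and 669 CPM after CMG in the DOCA–HS model. Both AngII after libraries of Gpx4 were below both before libraries, while its DOCA–HS after libraries were again the lowest and the highest of the 8. Catalase, which breaks hydrogen peroxide down without a thiol partner, was at 895 and 664 CPM before and 819 and 341 CPM after CMG in the AngII model, and at 389 and 491 CPM before and 285 and 699 CPM after CMG in the DOCA–HS model. Its groups overlapped in both models.

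The dismutases differed from each other. Sod2 was at 91.9 and 29.4 CPM before and 79.3 and 15.4 CPM after CMG in the AngII model, where the libraries of each group differed more than the groups did. In the DOCA–HS model it was at 44.8 and 55.5 CPM before and at 118 and 122 CPM after CMG, so that the groups were apart and the after libraries close to each other. From the lowest to the highest library Sod2 spanned 7.95-fold with TMM scaling, the widest range of the 10 genes in these units. Sod1, the cytosolic enzyme, spanned 2.14-fold, the narrowest, at 13.8 and 13.7 CPM before and 15.4 and 10.7 CPM after CMG in the AngII model and at 10.5 and 9.88 CPM before and 9.99 and 21.1 CPM after CMG in the DOCA–HS model.

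The less abundant peroxiredoxins were counted with 5 to 221 reads per library. Prdx1, a largely cytosolic enzyme, was at 15.01 and 29.6 CPM before and 11.8 and 12.4 CPM after CMG in the AngII model, so that the after libraries were close to each other and below both before libraries. In the DOCA–HS model it was at 12.2 and 13.3 CPM before and 9.23 and 26.7 CPM after CMG, with overlap. Prdx5, found in mitochondria, peroxisomes and cytosol, lay between 7.77 and 11.4 CPM in 7 libraries and at 24.6 CPM in DOCA–HS after replicate 2. Prdx3, the mitochondrial peroxiredoxin, lay between 5.77 and 13.5 CPM, and Prdx6, which uses glutathione in place of thioredoxin, between 3.52 and 9.84 CPM, with overlapping groups in both models. In DOCA–HS after replicate 2 these rested on 11 reads of Prdx3 and 5 reads of Prdx6. Copies of several of these genes elsewhere in the genome could take part of their reads, and how reads aligning to several places were counted is not given in the sources used here.

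**Figure D1:**
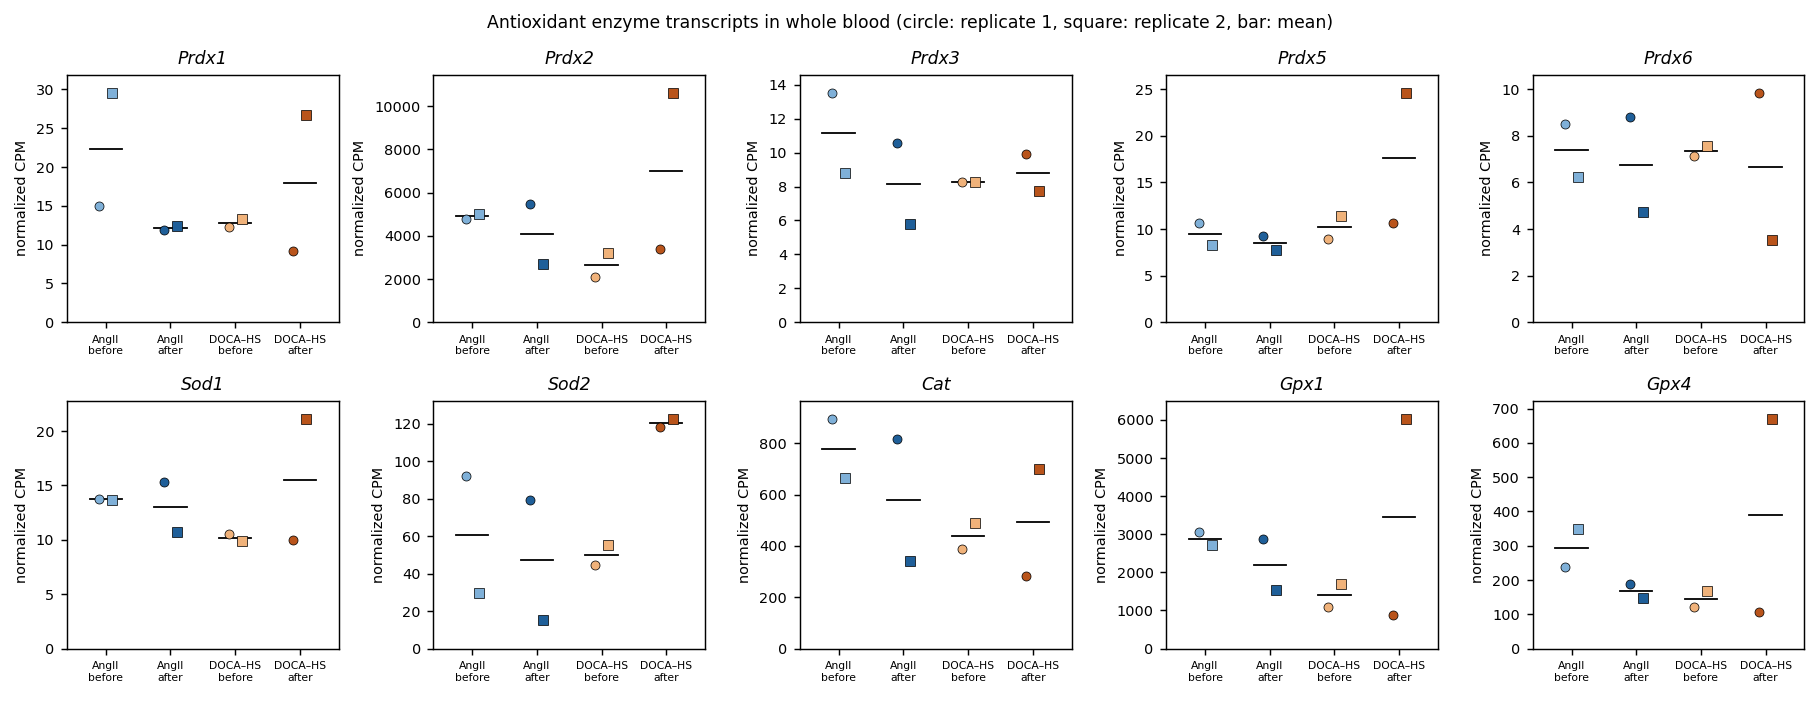
Normalized CPM (vertical axis, linear, starting at 0) of each of the 10 genes in the 4 groups; circles are replicate 1, squares replicate 2 and bars the mean of 2 libraries. Sod2 after CMG in the DOCA–HS model lies at 118 and 122 CPM, above both libraries before CMG, while Gpx1 and Gpx4 in the same group hold both the lowest and the highest library.

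After CMG in the AngII model, no enzyme of the 10 passed the unadjusted threshold of p at most 0.05 (edgeR's quasi-likelihood test), whereas 6.65% of the 7201 genes tested did. All 10 log2 fold changes were below 0, from −0.84 to −0.06, with a median of −0.36 against −0.01 over all genes, of which 49.0% were above 0. The largest were those of Prdx1 at −0.84 (SE 0.37, unadjusted p = 0.0519) and Gpx4 at −0.79 (SE 0.38, unadjusted p = 0.0752), edgeR adjusted p = 0.752 for both. These were also the 2 genes whose after libraries both lay below both before libraries, a pattern found in 17.6% of all genes tested, while the reverse pattern, found in 22.1%, was found in 0 of the 10. Sod2, Cat and Gpx1 had changes of −0.36 (SE 0.76), −0.41 (SE 0.52) and −0.36 (SE 0.54), each smaller than its standard error. Without AngII after replicate 1 the median was −0.92 and 7 members passed the unadjusted threshold, together with 1386 of 8102 genes, and without AngII after replicate 2 it was 0.05. As CPM of total counts, both after libraries lay below both before libraries for Gpx4 (4.43% of all genes tested) and above for Sod1 (31.4%), and Prdx1 overlapped.

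After CMG in the DOCA–HS model the 10 log2 fold changes were all above 0, from 0.03 to 1.43, with a median of 0.63 against −0.04 over all genes, of which 47.5% were above 0. Sod2 passed the unadjusted threshold, at 2.41-fold higher after CMG (log2 fold change 1.27, SE 0.50, unadjusted p = 0.0329, edgeR adjusted p = 0.997), and was the only one of the 10 to do so where 3.17% of the 7720 genes tested did. It stayed under the fold criterion of the study, a log2 fold change beyond 1.5. Gpx4 at 1.43 (SE 0.84, unadjusted p = 0.127), Prdx2 at 1.41 (SE 0.97, unadjusted p = 0.181) and Gpx1 at 1.31 (SE 1.02, unadjusted p = 0.231) had larger estimates than Sod2 with wider standard errors (edgeR). Prdx2 and Sod2 had both after libraries above both before libraries, as had 14.8% of all genes tested, and 0 members had both below, as had 20.9%.

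Most of the DOCA–HS estimates rested on 1 library. Without DOCA–HS after replicate 2 the median was 0.03, and Gpx4, Gpx1 and Cat had log2 fold changes of −0.41, −0.66 and −0.62. Without DOCA–HS after replicate 1 the median was 1.18, Gpx4, Gpx1 and Prdx2 were at 2.21, 2.11 and 2.01, and 7 members passed the unadjusted threshold, together with 2528 of 8126 genes. The estimate of Sod2 stayed between 1.12 and 1.44 whichever library was left out, though its unadjusted p was 0.375 without DOCA–HS before replicate 1 and 0.247 without replicate 2 of that group (edgeR). Scaling decided more. As CPM of total counts, without TMM factors, Sod2 was at 83.9 and 63.9 before and 169.8 and 41.9 after CMG, with overlap, and its log2 fold change was 0.52 (unadjusted p = 0.566, edgeR), where the median of all genes was −0.76. Catalase was at 729 and 565 CPM of total counts before and 409 and 240 CPM after CMG, both after libraries below, with a log2 fold change of −0.996 (unadjusted p = 0.118, edgeR), which is 0.17 with TMM scaling. Prdx1 too had both after libraries below in these units, as had 23.9% of all genes tested. Prdx2 overlapped, at 3911 and 3682 before and 4885 and 3637 after CMG, and 0 members had both after libraries above, as had 1.4% of all genes.

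**Figure D2:**
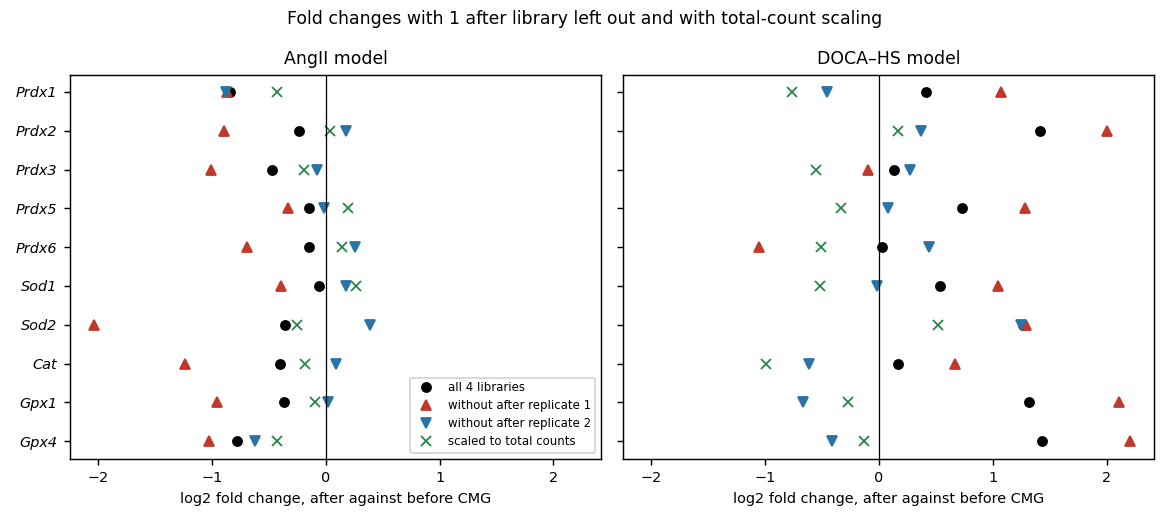
Log2 fold change after against before CMG (horizontal axis) of each gene in the AngII (left) and DOCA–HS (right) model, from all 4 libraries, without either after library and scaled to total counts. In the DOCA–HS model Gpx4 moves from 2.21 without after replicate 1 to −0.41 without after replicate 2, while Sod2 stays between 1.12 and 1.44 with any library left out and is at 0.52 with total-count scaling.

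The response of the models was compared in a fit over all 8 libraries. The change in the DOCA–HS model exceeded that in the AngII model for all 10 genes, by a median log2 difference of 1.07, against −0.12 over all genes. Gpx4 alone passed the unadjusted threshold and the fold criterion, with a difference of 2.23 (SE 1.00, unadjusted p = 0.0483, edgeR adjusted p = 0.881), where 3.74% of the 7994 genes tested passed the former. Differences of 1.69 (SE 1.16) for Gpx1, 1.67 (SE 1.04) for Prdx2 and 1.63 (SE 1.00) for Sod2 did not. Scaled to total counts, the median difference was −0.35, against −1.21 over all genes, and 0 members passed. Averaged over both models, the median change was 0.25 and 0 members passed, against 3.93% of all genes tested. The difference between the models, with TMM scaling, was also above 0 for all 18 erythroid markers tested, described below (median 1.21). It was above 0 for all 7 platelet markers tested (median 1.33) and for 0 of 8 B cell markers (median −1.09). The other marker lists lay between, with medians from −0.62 to 0.044.

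Between the models before CMG, 9 of the 10 genes were lower in DOCA–HS than in AngII, with a median log2 fold change of −0.62 and the lowest for Gpx1 (−1.05, SE 0.83) and Gpx4 (−1.02, SE 0.71). None passed the unadjusted threshold, and 3.38% of all genes did. After CMG, 9 of 10 were higher in DOCA–HS, with a median of 0.56, Prdx5 at 0.96 (SE 0.45, unadjusted p = 0.0574, edgeR) and Sod2 at 1.35 (SE 0.72, unadjusted p = 0.0885, edgeR), and again none passed, where 2.79% of all genes did. Scaled to total counts the medians were 0.18 before CMG, against 0.86 over all genes, and −0.032 after CMG, against −0.35 over all genes. Model and week of sampling cannot be told apart in these comparisons.

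**Figure D3:**
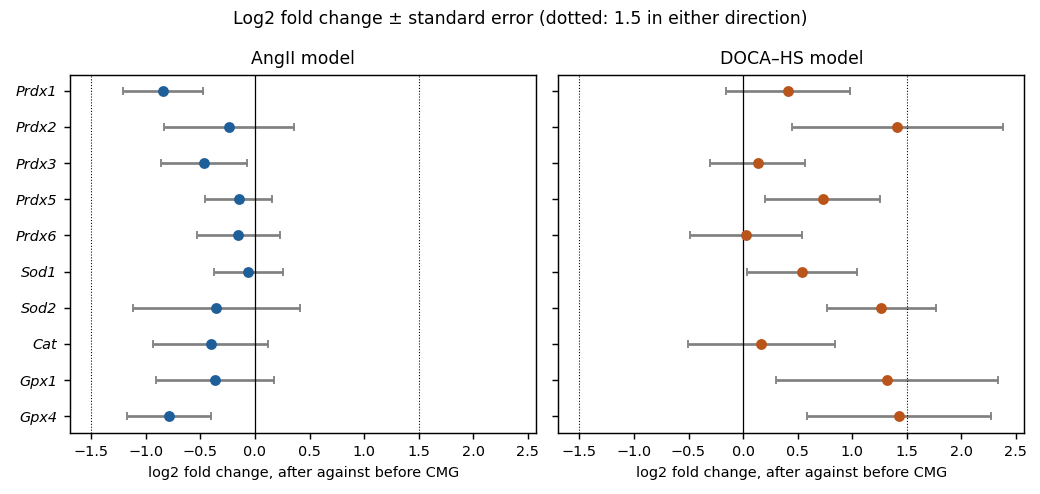
Log2 fold change after against before CMG (horizontal axis) of each gene with its standard error (bars), in the AngII (left) and DOCA–HS (right) model; dotted lines mark 1.5 in either direction. All 10 points lie below 0 in the AngII and above 0 in the DOCA–HS model with TMM scaling, and only for Sod2 in the DOCA–HS model was the unadjusted p at most 0.05.

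In whole blood, a lower share of a cell type and less RNA per cell cannot be told apart, so the enzymes were set beside markers of blood cells. Of 20 erythroid markers 19 were in the table and all 19 had counts, with 51.3% of them on Alas2, the first enzyme of heme synthesis in red cell precursors. With TMM scaling their summed level was 31956 and 41381 CPM before and 31929 and 20068 CPM after CMG in the AngII model, and 16214 and 23639 CPM before and 17155 and 59638 CPM after CMG in the DOCA–HS model. As a share of total counts, both after libraries lay below both before libraries in each model, as in 4.43% (AngII) and 23.9% (DOCA–HS) of all genes tested. DOCA–HS after replicate 2 was then the lowest of all libraries, with 84817 erythroid marker counts of 4149104 in total. Of the 18 erythroid markers tested, 0 were above 0 in the AngII model (median log2 fold change −0.50) and 14 in the DOCA–HS model (median 0.41). The part of red cell RNA in the changes of the 10 enzymes was not tested. Of 12 platelet markers 10 were in the table, with Gp1bb at 0 in every library and 52.5% of the counts on Pf4. The platelet sum was 833 and 233 CPM before and 720 and 76.2 CPM after CMG in the AngII model, and 292 and 436 CPM before and 824 and 1307 CPM after CMG in the DOCA–HS model, where both after libraries lay above both before libraries. Of the 7 platelet markers tested, 7 were above 0 in the DOCA–HS model, with a median log2 fold change of 1.26, and Pf4 (1.72, unadjusted p = 0.0238) and Treml1 (1.92, unadjusted p = 0.0234) passed the unadjusted threshold (edgeR), as did 3.17% of all genes tested. Scaled to total counts they were at 0.77 and 0.72 (unadjusted p = 0.262 and 0.459, edgeR). Neither passed without DOCA–HS before replicate 1 (unadjusted p = 0.344 and 0.249) or replicate 2 of that group (unadjusted p = 0.22 and 0.059, edgeR).

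Sod2 followed the platelet markers across all 8 libraries. Pearson's r of the log2 levels was 0.985 and Spearman's rho 0.976 (adjusted p = 0.0026 and 0.0139 in exact permutation tests, two-sided, adjusted over 70 relations of 10 genes with 7 marker lists). These tests, here and below, take the 8 libraries as independent and exchangeable and set aside the 4 groups. The sources do not state that the libraries are independent, so the p-values may be too low. Without the 2 libraries farthest from the median platelet sum r was 0.958, without DOCA–HS after replicate 2 it was 0.984, and scaled to total counts it was 0.957. Sod2 was not alone in this. Without DOCA–HS after replicate 2, r with the platelet sum was 0.980 for Prdx6 and 0.902 for Prdx3, against 0.203 and 0.668 over all 8. Without the 2 farthest libraries it was −0.385 and 0.237. Per 1000 platelet marker counts, Sod2 had 110 and 126 counts before and 110 and 202 after CMG with AngII. With DOCA–HS it had 153 and 127 before and 143 and 93.6 after CMG. That ratio spanned 2.16-fold where the level of Sod2 spanned 7.95-fold, and its DOCA–HS groups overlapped. Sod2 per 1000 monocyte marker counts spanned 10.5-fold. The part of platelet RNA in the difference of Sod2 was not tested.

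Gpx4, Gpx1, Prdx2 and Sod1 followed the erythroid markers with TMM scaling. Pearson's r with the erythroid sum was 0.971 for Gpx4, 0.962 for Gpx1, 0.938 for Prdx2 and 0.915 for Sod1 (adjusted p = 0.0026, 0.00738, 0.0132 and 0.035 in exact permutation tests), and Spearman's rho was 0.976, 0.905, 0.857 and 0.738 (adjusted p = 0.0139, 0.106, 0.125 and 0.224 in exact permutation tests). Without the 2 farthest libraries r was 0.959, 0.914, 0.838 and 0.837. Scaled to total counts, the same r were 0.29, 0.44, 0.23 and 0.60, so these relations depend on the scaling, unlike that of Sod2 with the platelet markers. Prdx2 ran opposite to the B cell markers with TMM scaling (r = −0.963, rho = −0.881, adjusted p = 0.00738 and 0.125 in exact permutation tests, r = −0.857 without the 2 farthest libraries), and r was 0.04 with total counts. For Pearson's r, 6 of the 70 relations had an adjusted p under 0.05, the 6 named here. For Cat and the erythroid sum r was 0.782 (adjusted p = 0.147 in an exact permutation test) with TMM scaling and 0.874 with total counts. For Prdx1 and the erythroid sum r was 0.849 (adjusted p = 0.056 in an exact permutation test) with TMM scaling and 0.726 with total counts.

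**Figure D4:**
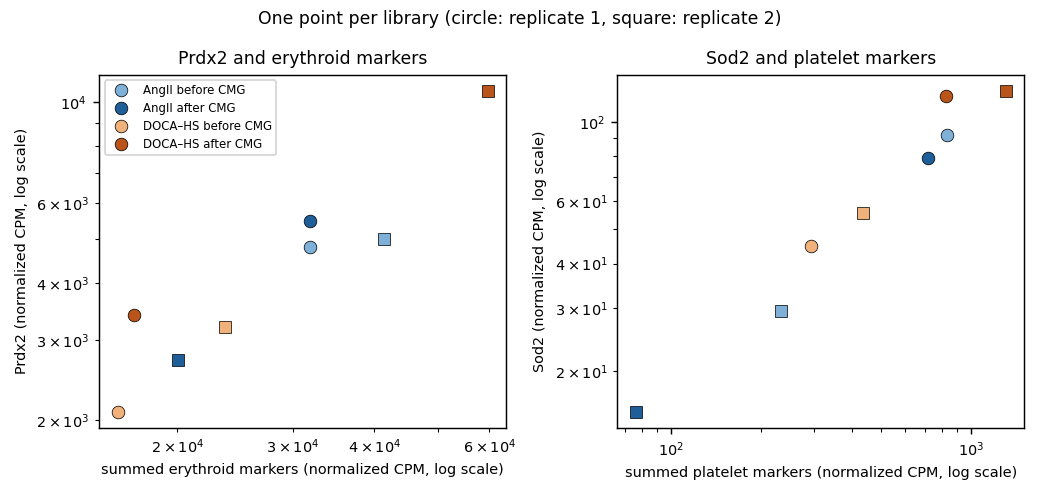
Prdx2 against summed erythroid markers (left) and Sod2 against summed platelet markers (right), in normalized CPM on log axes, with 1 point per library coloured by group. Sod2 ascends from 15.4 CPM at a platelet sum of 76.2 CPM to 122 CPM at 1307 CPM, with an r of 0.985 on the log2 scale.

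Ratios within a library, chosen after the levels were seen, need no scaling between libraries. Prdx2 per 1000 erythroid marker counts was 150 and 121 before and 171 and 135 after CMG in the AngII model, with overlap, and 129 and 135 before and 198 and 178 after CMG in the DOCA–HS model, where both after libraries were above. That ratio spanned 1.64-fold where the level of Prdx2 with TMM scaling spanned 5.09-fold. As CPM of total counts, however, Prdx2 lay only between 3637 and 5023. Against the 2 hemoglobin rows, however, Prdx2 overlapped in the DOCA–HS model, with 6.32 and 5.19 counts per 1000 before and 7.28 and 4.32 after CMG. Catalase was lower after CMG in the DOCA–HS model against each of these denominators. Per 1000 Prdx2 counts it had 186 and 154 counts before and 83.8 and 65.9 after CMG, per 1000 erythroid marker counts 24.0 and 20.8 before and 16.6 and 11.7 after, and per 1000 hemoglobin counts 1.18 and 0.796 before and 0.61 and 0.284 after. In the AngII model catalase overlapped in all 3 ratios, at 187 and 133 before and 150 and 126 after CMG per 1000 Prdx2 counts. Gpx1 per 1000 Prdx2 counts lay between 526 and 638 in 7 libraries and was 258 in DOCA–HS after replicate 1. Gpx4 per 1000 Prdx2 counts overlapped in both models, between 31.8 and 70.0. With 2 libraries against 2, an exact permutation test cannot give a p below 0.333, and no other test was made of the ratios, which are given as values. The share of all genes whose groups are apart by these denominators was not computed. In CPM, both DOCA–HS after libraries lay below in 20.9% (TMM) and 23.9% (total counts) of all genes tested. Both lay above in 14.8% and 1.4%. The 3 catalase ratios share their numerator and are not separate results.

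**Figure D5:**
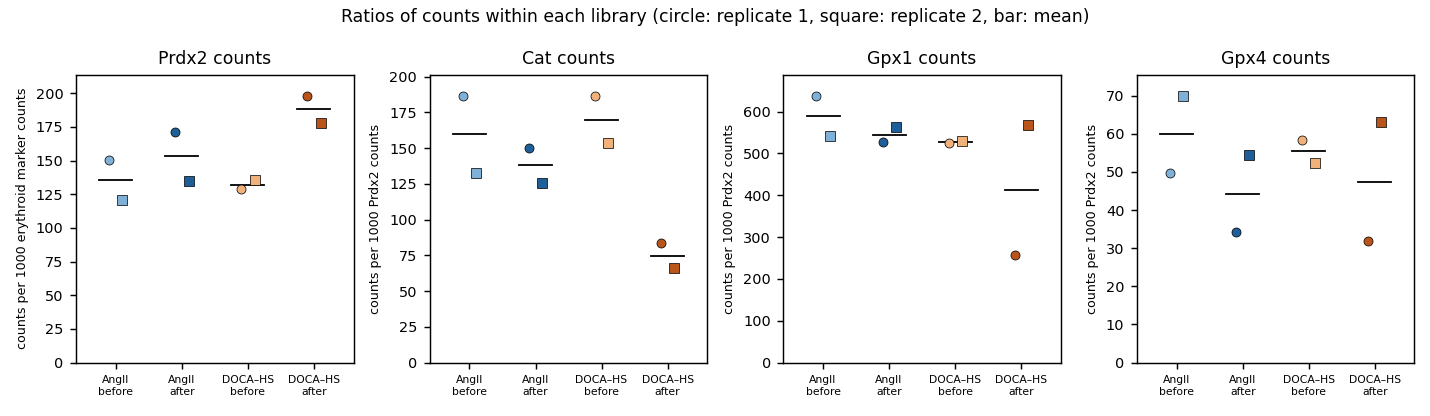
Counts of Prdx2 per 1000 erythroid marker counts and of Cat, Gpx1 and Gpx4 per 1000 Prdx2 counts (vertical axes, linear, from 0) in the 4 groups; circles are replicate 1, squares replicate 2 and bars means. Catalase in the DOCA–HS model is at 83.8 and 65.9 after against 186 and 154 before CMG, while Gpx1 is at 258 in a single after library and at 526 to 638 in the other 7.

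The members moved together to different degrees. Over the 8 libraries the log2 levels of Sod1 correlated with those of Gpx1 at r = 0.933 and of Prdx2 at r = 0.932, and those of Gpx1 with Gpx4 at r = 0.929, all with TMM scaling and over the same libraries. The lowest r, −0.668 for Prdx6 and Gpx4, rested on DOCA–HS after replicate 2 and was −0.188 without it. The genes most like a member among the 7994 tested were, for Prdx2, Rec114, Pclo and Cd52 (r = 0.991 to 0.996), for Sod2, Kif2a, Gsn and Pttg1ip (r = 0.994 to 0.996), for Gpx4, Pck2, Cdc34 and Ppp1cb (r = 0.987 to 0.996), and for Gpx1, Borcs7, Tbc1d17 and Upf3a (r = 0.979 to 0.98). For catalase these were Phlpp2, Gda and RT1-S3 (r = 0.975 to 0.985), and for Prdx1 Stoml2, Prelid3b and Uqcrb (r = 0.971 to 0.975). For Prdx3 they were Rhag, Dnaja4 and Rit1 (r = 0.957 to 0.965), for Prdx5 Hells, Gpsm3 and Cd99 (r = 0.976 to 0.98), for Prdx6 Gas2l1, RGD1302996 and Cd84 (r = 0.975 to 0.984), and for Sod1 Acin1, Hgs and Ube3b (r = 0.969 to 0.979). These r were picked as the highest of 7994 over only 8 libraries, so their height comes in part from the choice. They use TMM scaling, were not tested, and were not computed without DOCA–HS after replicate 2.

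Of 11 genes listed as thioredoxin partners, which include thioredoxins, thioredoxin reductases, sestrins and Txnip, 8 were tested within each model. Txnip, which binds thioredoxin and blocks it, was at 534 and 445 CPM before and 87.0 and 89.9 CPM after CMG in the AngII model and at 243 and 254 CPM before and 57.8 and 39.4 CPM after CMG in the DOCA–HS model. The groups were apart in both models, with log2 fold changes of −2.45 (SE 0.39, unadjusted p = 0.000222, adjusted p = 0.533) and −2.34 (SE 0.56, unadjusted p = 0.00277, adjusted p = 0.997) in edgeR. The paper had already named Txnip, from this blood sequencing, among the genes lower after CMG in both models. The values for Txnip here read that result again and are no separate support for it. With each scaling, with DESeq2 and with any library left out, the change lay between −2.62 and −2.06 in the AngII and between −2.95 and −2.09 in the DOCA–HS model, with an unadjusted p under 0.05 each time. Thioredoxin reductase Txnrd1 passed the unadjusted threshold in the AngII model at 0.69 (SE 0.29, unadjusted p = 0.0437, adjusted p = 0.735, edgeR), as did 6.65% of all genes. It did not pass in the DOCA–HS model, at −0.12 (SE 0.49). Whichever of the 4 AngII libraries was left out, Txnrd1 no longer passed (unadjusted p from 0.0773 to 0.179, edgeR), nor did it with either other scaling or with DESeq2. Thioredoxin itself, Txn1, was at −0.32 (SE 0.36) and 1.01 (SE 0.52), neither past the threshold. It was at −0.77 (unadjusted p = 0.0354) without AngII after replicate 1, and at 1.44 (unadjusted p = 0.000649) without DOCA–HS after replicate 1 and 0.45 without replicate 2 of that group (edgeR). Sulfiredoxin (Srxn1), which repairs overoxidized peroxiredoxins, had 2 to 31 counts and did not pass the filter on low counts within either model with all libraries. In the 8-library fit the difference between the models was 2.58 (SE 0.91, unadjusted p = 0.0166, adjusted p = 0.881, edgeR).

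Glutathione synthesis and recycling, which serves Gpx1 and Gpx4, had 0 of 16 genes tested past the unadjusted threshold in either model, where 6.65% (AngII) and 3.17% (DOCA–HS) of all genes passed, at medians of −0.13 (AngII) and 0.04 (DOCA–HS). Glutathione reductase (Gsr) was at 0.09 (SE 0.30) and 0.38 (SE 0.44), the catalytic subunit of glutamate-cysteine ligase (Gclc) at 0.63 (SE 0.35) and −0.61 (SE 0.54) and its modifier subunit (Gclm) at −0.52 (SE 0.43) and 0.28 (SE 0.66). Among 11 genes for the delivery of copper, manganese and selenium, the copper chaperone Atox1 passed in the DOCA–HS model, as did 3.17% of all genes. Atox1 was at 2.01 (SE 0.66, unadjusted p = 0.0154, adjusted p = 0.997, edgeR), with 10.2 and 15.2 CPM before and 22.5 and 81.6 CPM after CMG. It was at 0.85 without DOCA–HS after replicate 2, at 1.76 without DOCA–HS before replicate 1 (unadjusted p = 0.127, edgeR) and at 0.72 with total-count scaling (unadjusted p = 0.54, edgeR). Ccs, the chaperone that loads copper into SOD1, was at −0.89 (SE 0.58) and 0.71 (SE 0.51), and with replicate 1 after CMG left out it was at −2.05 for AngII (unadjusted p = 0.000355) and 1.25 for DOCA–HS (unadjusted p = 0.00788, edgeR).

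Of 11 genes of the Nrf2 axis and its targets, Nfe2l2, which encodes Nrf2, passed the unadjusted threshold in the AngII model, as did 6.65% of all genes. Nfe2l2 was at 1.10 (SE 0.29, unadjusted p = 0.00558, adjusted p = 0.628, edgeR), with 4.24 and 5.41 CPM before and 9.92 and 10.3 CPM after CMG. It remained above 0.90 in each scaling and with each library left out, with an unadjusted p of 0.0683 without AngII before replicate 1 (edgeR). In the DOCA–HS model Nfe2l2 was at 0.09 (SE 0.56), and the difference between the models was not past the threshold (−0.96, SE 0.65). The DOCA–HS value was not stable, at −1.51 without DOCA–HS after replicate 1 and 0.56 without replicate 2 of that group. Keap1, which holds Nrf2 inactive, was at 0.15 (SE 0.35) and −0.19 (SE 0.47). Among 6 genes of NADPH oxidase, the superoxide source of phagocytes, all 6 were above 0 in the AngII model, as were 49.0% of all genes. The catalytic subunit Cybb passed at 0.91 (SE 0.36, unadjusted p = 0.0352, adjusted p = 0.713, edgeR), as did 6.65% of all genes. Cybb was at 0.54 without AngII before replicate 2 and 0.73 without AngII after replicate 1 (unadjusted p = 0.264 and 0.0879, edgeR). In the same comparison 7 of the 9 monocyte markers tested were above 0, with a median of 0.65, and 3 passed the threshold (Csf1r at 1.20, Cd68 at 0.72 and Fcgr3a at 1.29). Cd14 (−0.89) and Vcan (−0.32) were below 0, and Lyz2, with 81.7% of the counts of the list, was at 0.23. Of 9 neutrophil markers tested 3 were above 0 and 1 passed upward, Cxcr2 at 0.76. Among 10 cytotoxic lymphocyte markers tested 9 were above 0 and 5 passed upward. The part of monocyte RNA in the values of Cybb was not tested. Of the other members of the enzyme families, 2 of 8 were tested. Gpx3, the secreted glutathione peroxidase, passed the threshold in the DOCA–HS model, as did 3.17% of all genes tested, and the fold criterion (log2 fold change 1.57, SE 0.45, unadjusted p = 0.00731, adjusted p = 0.997, edgeR). Gpx3 was at 9.20 and 7.65 CPM before and 28.4 and 21.1 CPM after CMG. With total-count scaling its log2 fold change was 0.89 (unadjusted p = 0.477, edgeR). Its estimate stayed between 1.32 and 1.75 with any library left out, with an unadjusted p of 0.111 without DOCA–HS before replicate 1 and 0.164 without replicate 2 of that group (edgeR). Prdx4, the peroxiredoxin of the endoplasmic reticulum, was at −1.30 (SE 0.57, unadjusted p = 0.0515, edgeR) in the AngII and 0.32 (SE 0.48) in the DOCA–HS model.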

How the data were processed

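Whole-blood RNA was sequenced by the authors in 8 libraries, who aligned the reads to rn6 with HISAT2 and counted them by strand with HTSeq. They deposited raw counts per gene, without normalization. They state that hemoglobin annotations were removed, while 2 hemoglobin rows lead the counts. The labels name a kit without strand marking and the supplement its directional version. Of 17446 genes, 5754 had no count, and 0 columns belonged to other samples. The 2 libraries of each group differed by more than counting error (chi-square per degree of freedom from 15.4 to 94.6).

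The members and gene lists were chosen with earlier results of these data known. The authors used DESeq2. Here edgeR 4.0.16 (R 4.3.3; filterByExpr, TMM, glmQLFTest) was fitted on all genes, each model alone, and on all 8 libraries for contrasts between models. Adjusted p-values are Benjamini-Hochberg over all genes tested. The computation was tested on simulated data. Correlations between genes use log2 CPM (prior count 2), and those with marker sums use log2 CPM without a prior count. Named were the 10 members with all values, their fixed partners and the 3 genes most correlated with each member. Of the partner lists, up to 4 genes per list were named that passed an unadjusted p of 0.05 in a model with groups apart. Not every marker gene that met this rule was described. Among those left out were Ngp (log2 fold change −3.27) and Lcn2 (−4.02) in the DOCA–HS model and Cd3g (−0.85) in the AngII model. Alternatives were DESeq2 1.42.0, its size factors, total counts, counts outside hemoglobin, no filter, a minimum of 10 counts per library, a replicate block and each library left out. Scaled levels, ratios and the alternatives for partner genes were added after the data were seen. The fit per unit length planned for the levels was not made, as no lengths were used.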

Additional observations from a re-analysis of the deposited data

Results flagged for a closer look

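Gpx4, the glutathione peroxidase that protects membranes, passed an unadjusted p of 0.05 in the test of the difference between the models, and did not pass after adjustment. Its log2 fold change after against before CMG was 1.43 (SE 0.84) in the DOCA–HS and −0.79 (SE 0.38) in the AngII model, a difference of 2.23 (unadjusted p = 0.0483, edgeR adjusted p = 0.881), where 3.74% of all genes tested passed the unadjusted threshold. With total counts, with counts outside hemoglobin and with a minimum of 10 counts per library, 0 members passed it. Both AngII after libraries lay below both before libraries, while the DOCA–HS after libraries, at 108 and 669 CPM, lay on either side of the before libraries at 122 and 168 CPM. The erythroid sum of those DOCA–HS after libraries was 17155 and 59638 CPM with TMM scaling, and its part in the difference was not tested. As a share of total counts that sum was lower in both after libraries than in both before libraries.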

How the results depend on the processing

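The depth of DOCA–HS after replicate 2, with 651764 counts outside hemoglobin, limited the DOCA–HS comparison, and 2 libraries a group limited all of them. Scaling to total counts gave a median log2 fold change of the members of −0.42 in the DOCA–HS model, a median difference between the models of −0.35, and medians of 0.18 before and −0.032 after CMG for DOCA–HS against AngII. Scaling to counts outside the hemoglobin rows gave a median difference of 0.082 and a median of 0.10 before CMG for DOCA–HS against AngII. The medians of all genes moved with these scalings. With total counts they were −0.76 (DOCA–HS), 0.36 (AngII), −1.21 (difference), 0.86 (between models before CMG) and −0.35 (after CMG), and with counts outside hemoglobin −0.41, 0.38, −0.89, 0.78 and −0.10. The median of the members stayed on the same side of that of all genes in each of these. Sod2 in the DOCA–HS model was 0.52, 0.83 and 0.97 with total counts, with counts outside hemoglobin and with a minimum of 10 counts per library (unadjusted p = 0.566, 0.116 and 0.0633, edgeR). The cause of these changes was not tested.

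Members past an unadjusted p of 0.05 numbered 1 in the AngII model with DESeq2 (Gpx4), with its size factors, with no filter and with the replicate block (Prdx1 in these 3), against 0 as reported. Over all genes these settings gave 165, 457 and 982 of 7201, the last with the block, and 778 of 11196 with no filter. For DOCA–HS they numbered 2 with DESeq2 and with no filter, and 0 with total counts, with counts outside hemoglobin and with a minimum of 10 counts per library, against 1 as reported. These gave 277 of 7720, 505 of 11208, 18 and 70 of 7720 and 124 of 2668 genes. For the difference between the models they numbered 2 with DESeq2, with no filter and with the replicate block, and 0 with total counts, with counts outside hemoglobin and with the minimum of 10 counts, beside 320 of 7994, 691 of 11692, 659, 34 and 179 of 7994 and 86 of 2624 genes. For DOCA–HS against AngII after CMG they numbered 1 with DESeq2 and with counts outside hemoglobin and 2 with no filter, in place of 0, beside 279 and 154 of 7994 and 528 of 11692 genes.

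Leaving out 1 library at a time gave medians from −0.92 to 0.054 (AngII), 0.03 to 1.18 (DOCA–HS), 0.40 to 1.54 (difference), −0.09 to 0.47 (average), −0.72 to −0.51 (between models before CMG) and −0.32 to 1.23 (after CMG). The members past the unadjusted threshold then ranged from 0 to 7, 0 to 7, 0 to 6, 0 to 2, 0 to 2 and 0 to 3. A lone library left in a group was taken to vary like the other groups. An adjusted p under 0.05 was then reached by 2 members without AngII after replicate 1, by 3 without DOCA–HS after replicate 1 and, for the difference, by 1 without the latter, together with 281 of 8102, 1173 of 8126 and 146 of 8278 genes.

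Changes of sign among single genes were these. In the AngII model, Prdx2, Prdx5, Prdx6 and Sod1 were at 0.034, 0.19, 0.14 and 0.26 with total counts and at 0.042, 0.22, 0.17 and 0.28 with counts outside hemoglobin. With a library left out they ranged from −0.89 to 0.18, −0.35 to 0.050, −0.70 to 0.25 and −0.39 to 0.18, and Sod2, Cat and Gpx1 from −2.04 to 0.71, −1.23 to 0.088 and −0.96 to 0.020. In the DOCA–HS model, total counts gave −0.77 for Prdx1, −0.55 for Prdx3, −0.33 for Prdx5, −0.51 for Prdx6, −0.52 for Sod1, −0.996 for Cat, −0.27 for Gpx1 and −0.13 for Gpx4. Counts outside hemoglobin gave −0.21 for Prdx1, −0.25 for Prdx3, −0.29 for Prdx6, −0.024 for Sod1 and −0.48 for Cat. A minimum of 10 counts per library gave −0.029 for Prdx1, −0.060 for Prdx3 and −0.28 for Cat, with Prdx6 not tested. Prdx6 was at −0.00094 with DESeq2, −0.0091 with no filter and −0.12 with the replicate block. With a library left out the ranges were −0.45 to 1.07 for Prdx1, −0.10 to 0.27 for Prdx3, −1.06 to 0.44 for Prdx6, −0.020 to 1.04 for Sod1, −0.62 to 0.67 for Cat, −0.66 to 2.11 for Gpx1 and −0.41 to 2.21 for Gpx4.

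The labels number the libraries of each group alike without saying that a number marks a rat. Same-numbered libraries deviated together (r = 0.41 for AngII and 0.31 for DOCA–HS over 7994 genes), which with 2 per group holds for both numbers at once. With the replicate number as a block the medians were −0.44 (AngII), 0.57 (DOCA–HS), 0.92 (difference) and 0.10 (average), Prdx1 in the AngII model was at −0.80 (unadjusted p = 0.00881, edgeR), and 0 members had an adjusted p under 0.05, while 165 genes did in the AngII model. The block could not be fitted between the models.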
